A study of Mus musculus with 2 samples.

Results

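The genes described here are 31 immediate early and heat shock genes, 19 and 12 of them respectively, of 55487 genes in the count matrix. They were chosen by name, and all 31 were found in the matrix. The immediate early genes were Fos, Fosb, Jun, Junb, Jund, Atf3, Egr1, Egr2, Egr3, Nr4a1, Nr4a2, Klf2, Klf4, Klf6, Ier2, Ier3, Ier5, Dusp1 and Zfp36. The heat shock genes were Hspa1a, Hspa1b, Hsph1, Dnajb1, Dnaja1, Hspb1, Hsp90aa1, Hsp90ab1, Hspa8, Hspa5, Hspd1 and Hspe1. They were followed through the cell classes of the mouse medullary thymic epithelium, the tissue that displays self-antigens of other organs to developing T cells, and after treatment with spermidine, a polyamine. Female wild-type C57BL/6J mice, 4 weeks of age, received PBS or spermidine at 15 mg/kg in PBS by intraperitoneal injection on 7 consecutive days. Thymi were digested with collagenase and dispase, CD45+ cells were depleted on magnetic beads, and medullary thymic epithelial cells (mTECs), both the MHC class II-high Aire stage and the MHC class II-low stage after Aire, were sorted by flow cytometry. The 2 PBS samples and 2 spermidine samples were marked with hashtag antibodies, pooled and run as 1 10x Genomics 3′ library, so all cells shared 1 droplet run and 1 library. The labels do not say that each sample was a separate mouse, so p-values measure the spread between hashed samples, which may be technical.

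Immediate early genes are transcribed within minutes of a signal without new protein synthesis. Fos and Jun family proteins pair as the AP-1 transcription factor, Egr and Nr4a proteins are further transcription factors of the same wave, and Dusp1 and Zfp36 are brakes that dephosphorylate MAP kinases and destabilise short-lived messenger RNAs. Heat shock genes encode chaperones that fold or refold proteins: HSP70 and HSP90 in the cytosol, BiP (Hspa5) in the endoplasmic reticulum, and the Hspd1 and Hspe1 chaperonin in mitochondria. Cytosolic chaperone genes respond to heat shock factor 1 through heat shock elements, and both groups are known to respond to enzymatic dissociation of tissue.

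The promoter sequences of members that carried known stress or signal elements are given first, since both gene groups are named for what induces them. RefSeq promoter windows on GRCm38.p6, of which the 250 bases before each start were searched, were matched to 25 of 31 members. A heat shock element was searched on both strands as GAANNTTC or TTCNNGAA (2 units) and as GAANNTTCNNGAA or TTCNNGAANNTTC (3 units, which contains the 2-unit form). Of 32851 promoter windows of all genes, 12.8% held the 2-unit form and 0.466% the 3-unit form. The 2-unit form was present in 9 of the 25 matched members (Dnaja1, Egr2, Hspa1a, Hspa1b, Hspb1, Hspd1, Hspe1, Hsph1 and Jun), and the 3-unit form in 2, Hspd1 and Hspe1. The percentages count windows, whereas a member counted once if any of its windows matched, so the 2 shares have unlike units. Some members had several windows, and Hspd1 with Hspe1 and Hspa1a with Hspa1b have shared or nearly identical sequence. In the lines below, capitals mark the motif. The first pair, Hspa1a (chr17:34972157-34972406, minus strand) and Hspa1b (chr17:34959239-34959488, minus strand), are the inducible HSP70 genes, and the 250 bases before their starts matched at 247 of 250 positions.

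Hspa1a: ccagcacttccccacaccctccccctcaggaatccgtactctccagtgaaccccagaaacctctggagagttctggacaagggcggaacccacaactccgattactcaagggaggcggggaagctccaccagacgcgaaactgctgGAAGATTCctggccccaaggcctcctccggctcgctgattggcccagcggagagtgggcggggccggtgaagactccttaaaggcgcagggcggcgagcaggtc
Hspa1b: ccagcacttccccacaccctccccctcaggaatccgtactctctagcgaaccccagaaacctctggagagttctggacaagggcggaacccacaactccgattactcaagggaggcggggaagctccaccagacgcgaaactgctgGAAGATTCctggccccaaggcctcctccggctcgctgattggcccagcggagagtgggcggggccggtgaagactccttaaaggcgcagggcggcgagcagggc

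In both, the 2-unit element began 104 bases before the start. Hspb1, the small heat shock protein HSP25, held 2 such elements, 117 and 97 bases before its start (chr5:135887669-135887918, plus strand).

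Hspb1: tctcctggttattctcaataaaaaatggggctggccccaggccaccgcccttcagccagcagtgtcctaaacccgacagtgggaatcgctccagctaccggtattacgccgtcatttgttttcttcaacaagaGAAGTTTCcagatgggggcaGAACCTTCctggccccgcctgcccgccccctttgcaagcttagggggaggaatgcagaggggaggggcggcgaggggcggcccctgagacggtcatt

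Hspd1 and Hspe1 lie head to head on chromosome 1, with 216 bases between their starts and 215 bases common to both windows, and the capitals mark a pair of overlapping 3-unit matches that form 1 stretch counted for both genes (chr1:55088053-55088082, plus strand).

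Hspe1 and Hspd1: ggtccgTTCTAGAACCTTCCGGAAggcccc

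Hspa5, which encodes BiP, was the only matched member with an ER stress response element (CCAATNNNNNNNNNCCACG), a motif present in 0.113% of all windows (chr2:34772019-34772048, plus strand).

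Hspa5: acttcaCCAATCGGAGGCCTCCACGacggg

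Egr2 (chr10:67537619-67537868, plus strand) carried a CArG box, the site bound by serum response factor, found in 1.47% of windows and, among matched members, in Egr2 and Zfp36.

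Egr2: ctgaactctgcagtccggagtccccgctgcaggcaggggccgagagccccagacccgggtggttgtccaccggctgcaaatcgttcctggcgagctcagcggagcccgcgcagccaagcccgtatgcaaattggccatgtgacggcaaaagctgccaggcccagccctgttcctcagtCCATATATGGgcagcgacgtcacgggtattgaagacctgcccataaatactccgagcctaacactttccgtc

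A palindromic cyclic AMP response element (TGACGTCA), present in 1.55% of windows, was found in Dusp1 alone among matched members, and an AP-1 site (TGANTCA; 6.75% of windows) in Hspa5 alone. A match of letters is a description and not a bound site.

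Sequencing depth was similar between samples. After filtering, 4709 cells carried 1 of the 4 labelled hashtags, 1335, 993, 1374 and 1007 in the order PBS replicate 1, PBS replicate 2, spermidine replicate 1 and spermidine replicate 2, used for every run of 4 values below. Adding HT6 and HT7, a pair of hashtags that no label names but that carried many counts, turned 19% of these cells into doublets. Median unique molecular identifiers (UMIs, 1 per captured transcript) per cell ranged from 15736 to 17365. Cells were clustered without the 31 genes and without 4 lists of related genes, and clusters were named by similarity to marker genes. Of the resulting classes, 9 had at least 20 cells in every sample. Aire averaged 737 CPM in Aire-stage-like and 882 CPM in transit-amplifying-like cells, which also had Mki67 at 212 CPM. Ccl21a reached 5268 CPM in immature-like cells, Dclk1 3053 CPM in tuft-like cells, Ccl20 9150.3 CPM in microfold-like cells, Snap25 505 CPM in neuroendocrine-like cells and Myog 669 CPM in muscle-like cells. The muscle-like cluster was mixed, with Ccl21a at 1141 CPM. Cluster 16 matched the enterocyte or hepatocyte list best, with 11 of 12 markers above 2-fold but 0 among its 10 leading genes. It is called by its number and was led by Ces2a, Guca2a and Ms4a10. Tuft-like clusters 1 and 3 and Aire-stage-like clusters 4 and 6 also had 0 of their own markers among their 10 leading genes. Those clusters keep their class names, so this count does not set cluster 16 apart. CPM, the depth-scaled level of a gene, is its UMIs relative to all UMIs of that class in that sample. Levels of different genes were not compared, since 3′ counts carry no length term.

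Immediate early genes were highest in tuft-like cells, the chemosensory class that resembles taste and gut tuft cells, and lowest in the dividing class. Among the 9 classes, 11 of 19 immediate early genes had their highest mean level in tuft-like cells, 4 in immature-like cells, 3 in microfold-like cells and 1 in cluster 16. Heat shock genes were spread over more classes: 3 of 12 peaked in transit-amplifying-like cells and 2 each in tuft-like, immature-like and Aire-stage-like cells. In 13 of 31 members the 4 samples of the highest class lay wholly above those of the next class, and in the others the leading classes overlapped. The classes also differed in median mitochondrial share. By sample it ran from 5.29% to 5.89% in tuft-like, 2.03% to 2.11% in Aire-stage-like and 1.63% to 1.82% in transit-amplifying-like cells. Its part in the class differences was not tested.

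**Figure D1:**
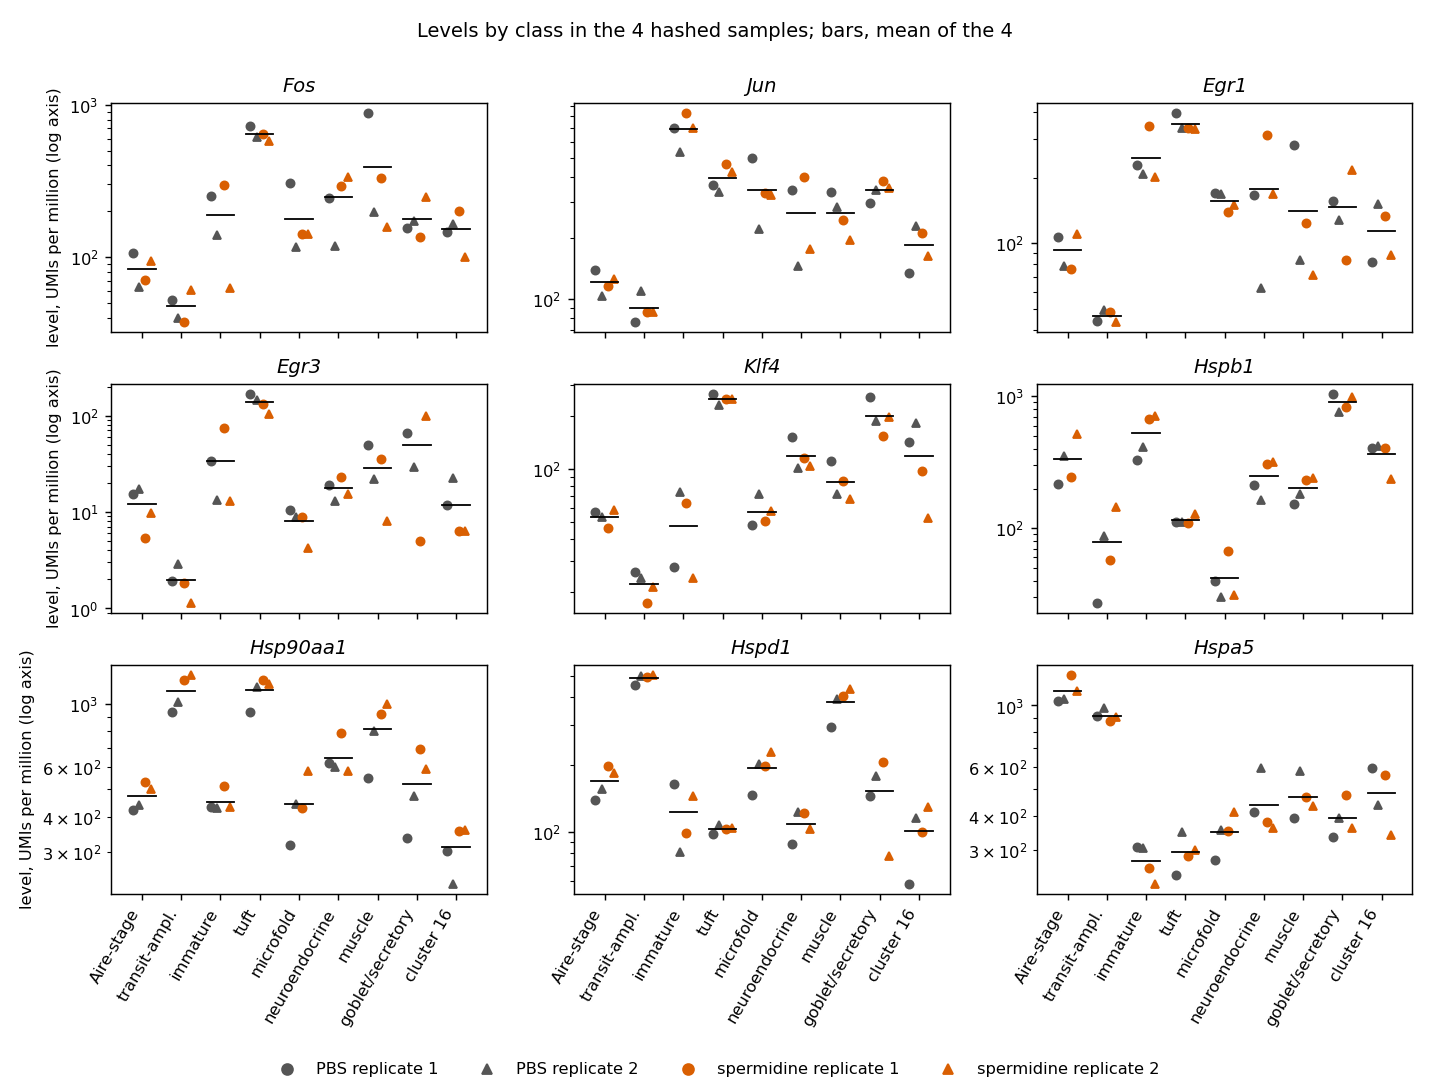
Levels of 9 of the 31 genes (Fos, Jun, Egr1, Egr3, Klf4, Hspb1, Hsp90aa1, Hspd1 and Hspa5) in 9 classes, in CPM on a log axis, with 1 point per hashed sample (PBS grey, spermidine orange; circles replicate 1, triangles replicate 2) and a bar for the mean of 4. Tuft-like points are high for Fos, Egr1 and Egr3, immature-like points for Jun, goblet-like points for Hspb1, transit-amplifying-like points for Hspd1 and Aire-stage-like points for Hspa5.

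Fos and Fosb had their highest means in tuft-like cells and their lowest in transit-amplifying-like cells among the 9 classes. Fos, a rapidly induced AP-1 subunit (chr12:85473890-85477273, plus strand), stood at 727, 612, 639 and 577 CPM in tuft-like cells, at 106, 64.1, 70.8 and 94.7 CPM in Aire-stage-like cells and at 52.1, 39.7, 37.7 and 61 CPM in transit-amplifying-like cells. Every tuft-like sample exceeded every sample of both other classes. Against Aire-stage-like cells, in edgeR with the hashed sample as a block, the log2 fold change (± SE) was 2.94 ± 0.12, adjusted p = 4.56e-07. Fos was also higher in muscle-like (1.85 ± 0.30, adjusted p = 0.000842), microfold-like (1.29 ± 0.16, adjusted p = 0.000225), neuroendocrine-like (1.25 ± 0.19, adjusted p = 0.00117) and cluster 16 cells (0.87 ± 0.24, adjusted p = 0.0242). In muscle-like cells it varied between samples, at 879.8, 197, 333 and 158 CPM, and overlapped the tuft-like range. In all, Fos was higher in 7 of 8 classes than in Aire-stage-like cells and lower in 1, the transit-amplifying-like class. Fosb, a Fos paralog, stood at 199.7, 157, 212 and 192 CPM in tuft-like cells against 28.5, 13.8, 26.6 and 31.2 CPM in Aire-stage-like cells, with no overlap (2.94 ± 0.13, adjusted p = 7.08e-07). In neuroendocrine-like cells it ranged from 28.9 to 148 CPM (1.29 ± 0.26, adjusted p = 0.00439).

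Jun, the main partner of Fos (chr4:95049034-95052222, minus strand), had another order. It was highest in immature-like cells, the mTECs that express the chemokine Ccl21a, at 703, 532, 828 and 702 CPM. Tuft-like cells followed at 365, 336, 466 and 425 CPM, and Aire-stage-like cells held 139, 103, 116 and 125 CPM. The immature-like samples lay above all tuft-like samples. The contrast with Aire-stage-like cells was 2.34 ± 0.11, adjusted p = 6.92e-08 in immature-like and 1.74 ± 0.14, adjusted p = 1.57e-05 in microfold-like cells, and Jun was higher in 7 of 8 classes. Jund, a more constitutively expressed paralog, ranged 2.75-fold from transit-amplifying-like cells (380.3 ± 17.2 CPM, mean ± SD, n = 4 samples) to tuft-like cells (1045 ± 36.7 CPM). Junb ranged 2.04-fold, and its immature-like (490.2 ± 120.2 CPM) and Aire-stage-like (458 ± 22.4 CPM) levels overlapped. Atf3, a stress-induced bZIP factor, was nearly silent in transit-amplifying-like cells, at 5.35, 6.22, 8.98 and 4.31 CPM against 45.2, 34.2, 35.6 and 33.1 CPM in Aire-stage-like cells (-2.37 ± 0.21, adjusted p = 0.000192). It was higher in cluster 16, at 86.8, 72.8, 89.6 and 63 CPM (1.08 ± 0.13, adjusted p = 0.000707), and its highest mean was in tuft-like cells (97.7 ± 21.2 CPM), which overlapped cluster 16.

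Among the EGR zinc-finger factors, Egr3 varied most between classes. Egr3 (chr14:70077203-70082614, plus strand) stood at 166, 146, 131 and 103 CPM in tuft-like cells, 15.5, 17.4, 5.41 and 9.85 CPM in Aire-stage-like cells and 1.95, 2.87, 1.84 and 1.15 CPM in transit-amplifying-like cells. Tuft-like samples were separate from the samples of every other class among the 9, and the ratio of the tuft-like to the transit-amplifying-like mean was 70. The log2 contrasts with Aire-stage-like cells were 3.58 ± 0.22, adjusted p = 3.42e-06 in tuft-like, 1.62 ± 0.47, adjusted p = 0.0214 in goblet-like, 1.17 ± 0.42, adjusted p = 0.0399 in muscle-like and -2.31 ± 0.34, adjusted p = 0.00150 in transit-amplifying-like cells. The last call was lost when cells were limited to 10% mitochondrial UMIs, where the log2 difference was -0.72, and when the 31 genes were allowed among the clustering genes, where it was -0.62. Keratinocyte-like cells, which had 16 cells in 1 sample and were not tested, held more Egr3 than any of the 9 classes, at 261, 276, 234 and 220.2 CPM, and their lowest sample exceeded the highest tuft-like sample. Egr2 stood at 39.2, 36.6, 32.8 and 25 CPM in tuft-like, 7.93, 13.8, 13.4 and 20.1 CPM in goblet-like, 14.7, 10.9, 21.4 and 5.56 CPM in immature-like and 5.11, 3.44, 3.74 and 3.34 CPM in Aire-stage-like cells. Its contrasts were 3.07 ± 0.15, adjusted p = 9.17e-07 in tuft-like, 1.55 ± 0.43, adjusted p = 0.0191 in goblet-like and 1.52 ± 0.39, adjusted p = 0.00667 in immature-like cells. Egr1, the best-known serum-response target of the family, was at 352 ± 28.6 CPM in tuft-like and 246 ± 68 CPM in immature-like cells, which overlapped, and at 46.2 ± 2.90 CPM in transit-amplifying-like cells. In tuft-like clusters 0, 1 and 3 Egr1 was at 502 ± 37.9, 411 ± 69.8 and 192 ± 72.6 CPM.

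Orphan nuclear receptors and Krüppel-like factors divided the classes differently. Nr4a1 was at 34.3 ± 11.7 CPM in tuft-like cells, above every sample of the other 8 classes. It was lower in cluster 16 than in Aire-stage-like cells, at 1.95, 5.29, 5.27 and 2.14 CPM against 7.47, 11.1, 11.1 and 7.79 CPM (-1.4 ± 0.37, adjusted p = 0.0205). Nr4a2 was scarce throughout, and its immature-like level of 13.8, 10.9, 6.42 and 3.70 CPM against 1.97, 3.06, 5.20 and 3.02 CPM (1.34 ± 0.50, adjusted p = 0.0418) was a call that several alternatives lost. Klf2, a quiescence factor of lymphocytes and endothelium, had its clearest difference in immature-like cells, where it was at 3.93, 1.21, 0 and 0 CPM, with 4, 1, 0 and 0 UMIs, against 22.8, 28.7, 26.1 and 16.7 CPM in Aire-stage-like cells. The fitted log2 contrast there, which depends on the prior count, was -3.95 ± 0.51, adjusted p = 9.41e-05. Klf2 was also lower in tuft-like cells, at 8.70, 6.47, 9.17 and 8.86 CPM (-1.5 ± 0.20, adjusted p = 0.000235), in goblet-like cells, at 10.2, 3.46, 18.4 and 2.23 CPM (-1.66 ± 0.41, adjusted p = 0.0105), and in cluster 16, at 5.85, 14.6, 4.22 and 4.27 CPM (-1.78 ± 0.32, adjusted p = 0.00380). Klf4, a factor of differentiated barrier epithelium, went the other way. It was at 57, 53.2, 46 and 58.2 CPM in Aire-stage-like cells and higher in goblet-like cells, at 257, 188, 154 and 199 CPM (1.68 ± 0.14, adjusted p = 5.71e-05), in cluster 16, at 143, 184, 97 and 52.3 CPM (1.05 ± 0.29, adjusted p = 0.0224), and in neuroendocrine-like cells, at 152, 102, 116 and 104 CPM (0.89 ± 0.13, adjusted p = 0.000848). Its highest mean of the 9 classes, 249.9 ± 13.9 CPM, was in tuft-like cells and overlapped goblet-like cells. Klf6 was at 205, 186, 205 and 204 CPM in Aire-stage-like cells, at 105, 54, 107 and 56.6 CPM in muscle-like cells (-1.44 ± 0.17, adjusted p = 0.000125) and at 156, 72.6, 82.1 and 169.6 CPM in goblet-like cells (-1.01 ± 0.22, adjusted p = 0.00633), lower in both.

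Among the remaining immediate early genes, Ier5, known as a cofactor of heat shock factor 1, ran against the AP-1 pattern. It was lowest in tuft-like cells, at 26.9, 26.4, 30.7 and 31.6 CPM (-2.29 ± 0.074, adjusted p = 1.91e-07), and low in immature-like cells, at 61.9, 51, 64.2 and 46.3 CPM (-1.49 ± 0.14, adjusted p = 8.03e-06), and muscle-like cells, at 81.7, 52, 71.3 and 71.4 CPM (-1.13 ± 0.12, adjusted p = 6.26e-05). Aire-stage-like cells held 135, 129.5, 146 and 150.1 CPM, above all samples of those 3 classes, and cluster 16 had the highest mean of the 9 classes, 174 ± 17.4 CPM. Ier3 was low in every class and lowest in neuroendocrine-like cells, at 6.76, 3.22, 8.99 and 4.22 CPM against 15.5, 16.3, 19 and 29.7 CPM in Aire-stage-like cells (-1.89 ± 0.32, adjusted p = 0.00171). Ier2 was highest in tuft-like cells (344 ± 29 CPM), apart from the next class, immature-like (196 ± 56.2 CPM). Zfp36 was also highest there (201 ± 6.22 CPM), with all 4 samples above those of the next class, microfold-like (163 ± 34.9 CPM). Tuft-like clusters differed in both genes. Zfp36 was at 303 ± 23.7 CPM in cluster 0, 167 ± 38.1 CPM in cluster 1 and 116 ± 40.5 CPM in cluster 3. Ier2 was at 494 ± 35.6, 329 ± 89.9 and 207 ± 37.4 CPM in these clusters. The lead of the class therefore did not extend to cluster 3. Dusp1 peaked in microfold-like cells (86.4 ± 34.3 CPM), which overlapped tuft-like cells (66.4 ± 10.3 CPM).

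HSP90 and constitutive HSP70 transcripts were high in the dividing class. Hsp90aa1, the inducible HSP90 (chr12:110690605-110702728, minus strand), stood at 934, 1018, 1215 and 1259 CPM in transit-amplifying-like and 422, 439, 529 and 502 CPM in Aire-stage-like cells (1.4 ± 0.058, adjusted p = 2.97e-05). Tuft-like cells reached the same mean as transit-amplifying-like cells, 1115 ± 123 CPM. Hsp90ab1, the constitutive HSP90, stood at 3948, 3697, 4265 and 4233 CPM in transit-amplifying-like and 1809, 1862, 2052 and 2042 CPM in Aire-stage-like cells (1.23 ± 0.047, adjusted p = 2.4e-05), and the muscle-like mean was as high (4159.5 ± 659 CPM). Ciliated-like cells, 55 cells in all and not tested, had Hsp90aa1 at 6799.8, 6597, 5786 and 7311 CPM, above every sample of the 9 tested classes, with Hsp90ab1 at 3302 ± 583 CPM. Hspa8, the constitutive HSP70, was highest in transit-amplifying-like cells (1406 ± 32 CPM), apart from muscle-like cells (1200.2 ± 61.3 CPM), and lowest in cluster 16 (440.5 ± 51.8 CPM).

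The inducible chaperones did not share 1 order. Hspa1a was at 349.5 ± 76.8 CPM in immature-like cells and lowest in tuft-like cells (95.3 ± 20.7 CPM), and Hspa1b was at 274 ± 52.5 CPM in immature-like and lowest in transit-amplifying-like cells (107 ± 22.7 CPM). Both had immature-like samples that overlapped the next class. Hspb1, whose 2 heat shock elements are printed above, was at 217, 355, 244 and 517 CPM in Aire-stage-like cells and far lower in transit-amplifying-like cells, at 27.2, 86.6, 57.1 and 145 CPM (-2.0 ± 0.18, adjusted p = 0.000195), and microfold-like cells, at 39.5, 30, 67 and 31.1 CPM (-2.63 ± 0.31, adjusted p = 0.000158). Its highest level among the 9 classes was in goblet-like cells (905 ± 135 CPM). The untested keratinocyte-like cells held 2264, 1719, 2317 and 3183 CPM, all above the highest goblet-like sample. Hsph1, an HSP110 nucleotide exchange factor, was at 28.9, 52.2, 40.6 and 52.3 CPM in microfold-like and 82, 105, 100 and 99.3 CPM in Aire-stage-like cells (-0.91 ± 0.14, adjusted p = 0.000767), and it was higher than in Aire-stage-like cells in none of 8 classes. Of the HSP40 cochaperones, Dnaja1 was the flattest member, ranging 1.22-fold over the 9 classes, and Dnajb1 ranged 2.08-fold.

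The mitochondrial chaperonin pair was high in dividing cells, and each gene had a second peak of its own. Hspd1 stood at 456, 496, 492 and 502 CPM in transit-amplifying-like cells and 139, 155, 197 and 184 CPM in Aire-stage-like cells (1.71 ± 0.083, adjusted p = 3.64e-05). In muscle-like cells it was at 294, 392, 406 and 435 CPM (1.07 ± 0.094, adjusted p = 2.3e-05), a call that did not hold when clusters were drawn differently and that changed sign in 3 alternatives. Hspe1, its partner across the shared promoter, was highest in microfold-like cells, at 1193, 1288, 1377 and 1296 CPM against 456, 499.5, 596 and 537 CPM in Aire-stage-like cells (1.58 ± 0.093, adjusted p = 2.72e-06). There Hspd1 was at 145, 202, 197 and 228 CPM, which overlapped its Aire-stage-like range. Hspe1 was lowest in neuroendocrine-like cells, at 178, 204, 236 and 184 CPM (-1.64 ± 0.083, adjusted p = 1.04e-05).

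Hspa5, the BiP chaperone with the ER stress element (chr2:34771970-34777547, plus strand), had its highest mean in the Aire stage. It stood at 1037, 1058, 1285 and 1128 CPM in Aire-stage-like cells and was lower in 7 of 8 classes, all but the transit-amplifying-like class (919 ± 44.2 CPM, not past the threshold). The contrasts were -2.19 ± 0.12, adjusted p = 2.59e-07 in immature-like cells (309, 307, 259 and 228 CPM), -1.95 ± 0.10, adjusted p = 1.65e-06 in tuft-like cells (245, 349.9, 286 and 302 CPM) and -1.74 ± 0.14, adjusted p = 4.27e-05 in goblet-like cells (336, 392, 476 and 362 CPM). They were -1.65 ± 0.15, adjusted p = 0.00011 in neuroendocrine-like cells (413, 597, 379 and 360.4 CPM), -1.43 ± 0.11, adjusted p = 1.22e-05 in microfold-like cells (276, 355, 354 and 411 CPM), -1.38 ± 0.11, adjusted p = 1.44e-05 in muscle-like cells (392, 580.2, 466 and 434 CPM) and -1.24 ± 0.16, adjusted p = 0.00098 in cluster 16 (596, 437, 559.7 and 341 CPM). Within the Aire stage it was uneven: Aire-stage-like cluster 4 held 1344, 1444, 1624 and 1361 CPM and cluster 6 held 666, 647, 606 and 716 CPM, with no overlap. This split is a description, since these clusters were drawn from the same cells. Median UMIs per cell were 23919 in cluster 4 and 16639 in cluster 6.

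Counts over the module matched these levels. Against Aire-stage-like cells, 16 of 31 members were higher and 10 lower in tuft-like cells, where 35.0% of all genes tested were higher and 39.4% lower. Of the 19 immediate early genes 13 were higher and 3 lower, and of the 12 heat shock genes 3 were higher and 7 lower. Transit-amplifying-like cells showed the opposite split: 6 of 31 members were higher and 16 lower (all genes 25.5% and 29.3%), with 0 of 19 immediate early genes higher and 14 lower, against 6 of 12 heat shock genes higher and 2 lower. The median log2 contrast of the immediate early genes was -0.78 in transit-amplifying-like and 1.38 in tuft-like cells, beside -0.072 and -0.036 over all genes. In immature-like cells 10 of 31 were higher and 13 lower (all genes 24.1% and 33.3%). In microfold-like cells 11 of 30 tested were higher and 6 lower (all genes 19.9% and 25.5%). In neuroendocrine-like cells 4 of 30 were higher and 14 lower (all genes 25.6% and 31.6%). In muscle-like cells the counts were 10 and 10 of 30 (all genes 22.4% and 32.5%). In goblet-like cells they were 8 and 7 of 31 (all genes 16.6% and 24.0%), and in cluster 16 5 and 10 of 30 (all genes 17.9% and 22.2%).

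**Figure D2:**
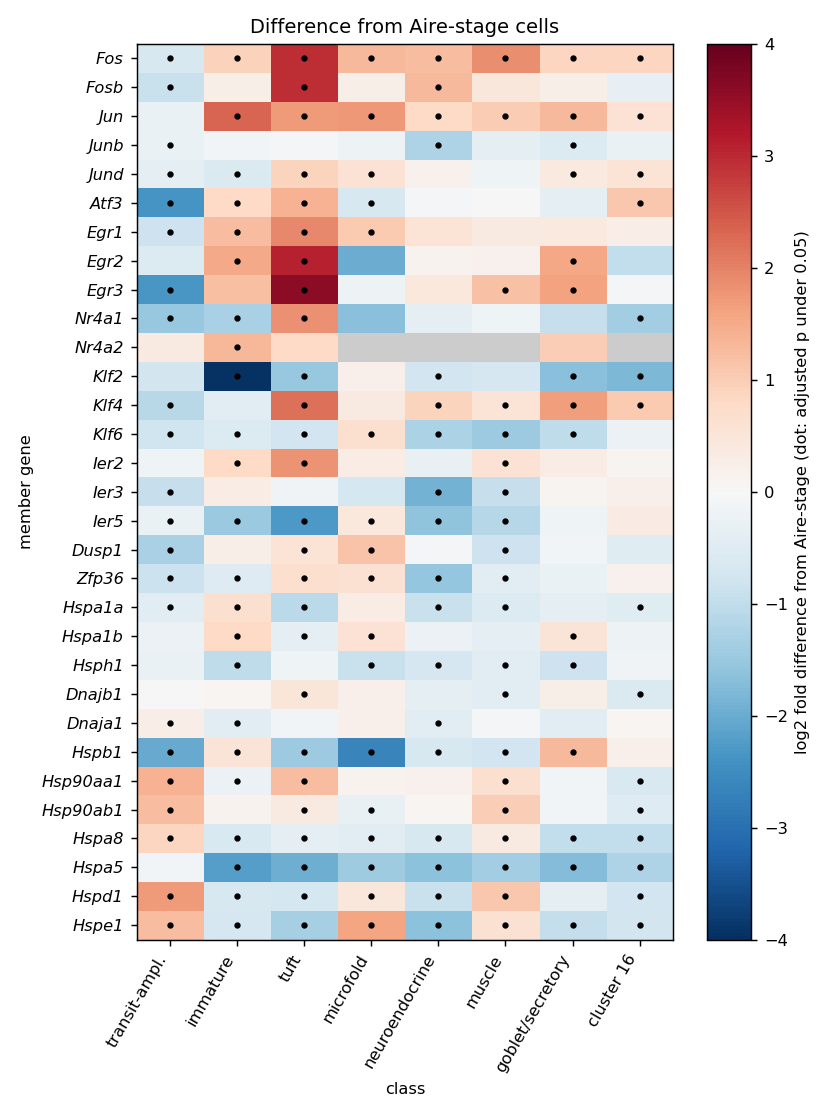
Colour map of the log2 fold change of each of the 31 genes (vertical axis) in each of 8 classes (horizontal axis) against Aire-stage-like cells, red higher and blue lower, with a dot where the adjusted p of edgeR is under 0.05 and grey where a gene was not tested. Most immediate early rows are red in the tuft-like column and blue in the transit-amplifying-like column, and the Hspa5 row is blue with a dot in 7 of 8 columns.

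Related genes outside the module were counted for comparison. Of 25 other ER chaperone and unfolded protein response genes, between 11 and 19 were lower than in Aire-stage-like cells in each of the 8 classes. The shares of all genes lower in these classes ran from 22.2% to 39.4%. Among these, in tuft-like cells 3 of 25 were higher and 18 lower (all genes 35.0% and 39.4%), and the 3 with the smallest p were Sdf2l1 -1.98 ± 0.10 (adjusted p = 1.38e-06), Pdia3 -1.36 ± 0.074 (adjusted p = 1.85e-06) and Creld2 -1.84 ± 0.11 (adjusted p = 3.16e-06). In transit-amplifying-like cells 7 were higher and 11 lower (all genes 25.5% and 29.3%), led by Pdia6 0.76 ± 0.065 (adjusted p = 0.000167), Dnajb9 -1.02 ± 0.10 (adjusted p = 0.000333) and Ddit3 -1.27 ± 0.14 (adjusted p = 0.000407). Of 33 other cytosolic chaperones and heat shock factor 1 targets, 20 were higher and 3 lower in transit-amplifying-like cells, as for Hsp90aa1 and Hsp90ab1. The smallest p values belonged to Cct6a 1.62 ± 0.073 (adjusted p = 3.39e-05), Cct5 1.26 ± 0.059 (adjusted p = 3.39e-05) and Stip1 1.5 ± 0.072 (adjusted p = 3.53e-05), 2 subunits of the TRiC chaperonin and an HSP70-HSP90 adaptor. The dividing class was not alone in this, since in muscle-like cells 20 of these 33 were higher and 5 lower (all genes 22.4% and 32.5%). In tuft-like cells 14 were higher and 10 lower, near the shares over all genes, led by Hsf2 2.64 ± 0.12 (adjusted p = 6.49e-07), Hspa4l 2.06 ± 0.097 (adjusted p = 9.04e-07) and Hspa4 1.1 ± 0.068 (adjusted p = 3.34e-06). Of 9 other mitochondrial chaperones, 6 were higher and 1 lower in transit-amplifying-like cells, led by Hspa9 0.82 ± 0.078 (adjusted p = 0.000262), Clpx -0.72 ± 0.10 (adjusted p = 0.00128) and Grpel2 0.58 ± 0.092 (adjusted p = 0.00211). In tuft-like cells 2 were higher and 3 lower, led by Grpel1 -0.87 ± 0.083 (adjusted p = 3.69e-05), Grpel2 1.01 ± 0.10 (adjusted p = 5.31e-05) and Clpx -0.49 ± 0.074 (adjusted p = 0.000488). Other immediate early genes were counted the same way. In tuft-like cells 11 of 36 tested were higher and 17 lower, also near the shares over all genes, led by Tnfaip3 2.45 ± 0.087 (adjusted p = 2.59e-07), Gadd45b -2.56 ± 0.11 (adjusted p = 4.95e-07) and Nfkbia -2.34 ± 0.10 (adjusted p = 5.63e-07). In transit-amplifying-like cells 6 of 35 were higher and 16 lower, led by Btg1 -1.05 ± 0.067 (adjusted p = 6.77e-05), Sgk1 -2.07 ± 0.16 (adjusted p = 0.000119) and Myc 1.17 ± 0.10 (adjusted p = 0.000204).

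Within a class, Fos transcripts were unevenly spread over cells. With every cell thinned to 3000 UMIs, Fos had a UMI in 47.4% of tuft-like, 12.8% of Aire-stage-like and 11.6% of transit-amplifying-like cells (unthinned 64.3%, 35.9% and 38.7%, at median depths of 12712, 20354 and 27316 UMIs). The thinned share among co-captured thymocyte-like cells was 11.8% at a median of 6285 UMIs (unthinned 26.2%), so the Aire-stage-like and transit-amplifying-like shares stood near or below that of a cell type outside the epithelium. Egr3 had a thinned UMI in 20.3% of tuft-like, 50.9% of keratinocyte-like, 2.59% of Aire-stage-like and 2.73% of thymocyte-like cells (unthinned 33.3%, 85.3%, 9.85% and 4.76%). The Aire-stage-like share of Egr3 was below the thymocyte-like share and above the transit-amplifying-like share, 0.708% (unthinned 3.67%). Thymocytes can express Egr3 themselves, and the part of free RNA in these shares was not tested. Thinning left out 25 tuft-like, 103 Aire-stage-like, 39 transit-amplifying-like, 2 keratinocyte-like and 16 thymocyte-like cells as too shallow. The 10% of Aire-stage-like cells with most Fos UMIs held 71.2% to 79.2% of them across the 4 samples, and the corresponding 10% of tuft-like cells held 52.6% to 61.7%. For Hsp90ab1 the range in Aire-stage-like cells was 29.2% to 31%. Across tuft-like cells Fos and Egr1 varied together: Pearson's r of log2 thinned counts over cells was 0.60 to 0.67 in the 4 samples, against 0.27 to 0.47 in Aire-stage-like cells, where both genes are sparser; these cells share 1 library and, after thinning, 1 depth. Tuft-like clusters differed, with Fos at 919, 670.1, 863 and 787 CPM in cluster 0, 799, 1288, 832 and 817 CPM in cluster 1 and 509, 252, 401 and 351 CPM in cluster 3.

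Spermidine and PBS samples were then compared within each class, the contrast that asks whether the treatment moved this module. No member passed the adjusted threshold of 0.05 in edgeR in any of the 9 classes or in the 2 pooled sets, all mTECs and all classes past the Aire stage (over all genes, the shares called were 0.101% in tuft-like and 0.00910% in neuroendocrine-like cells and 0% in the others). With 2 samples a side an exact two-sided permutation of 1 gene cannot go below p = 0.333. At an unadjusted p under 0.05, the members counted 4 in Aire-stage-like (7.08% of all genes), 6 in transit-amplifying-like (7.67%), 5 in immature-like (3.91%), 9 in tuft-like (11.5%), 1 in microfold-like (4.70%), 4 in neuroendocrine-like (4.26%), 7 in muscle-like (6.59%), 0 in goblet-like (4.88%) and 2 in cluster 16 (5.59%). They counted 11 over all mTECs (18.1%) and 6 over the classes past the Aire stage (8.13%). DESeq2 called 1 member in transit-amplifying-like cells (Hsp90aa1, higher), where it called 0.165% of all genes. It called 1 in tuft-like cells (Jun, higher), where the share of all genes was 0.153%. Over all mTECs it called 5 (Hspd1, Hspe1, Hsp90ab1 and Hspa1a higher, Egr3 lower), beside 2.07% of all genes. In the other 8 fits it called 0. Without the filter on low counts, edgeR called 11 members over all mTECs (7.73% of all genes), 6 in transit-amplifying-like cells (1.85%) and 5 in tuft-like cells (2.02%). Leaving out PBS replicate 2 gave 6 calls in muscle-like cells (0.593% of all genes) and 6 over all mTECs (2.67%). In tuft-like cells, leaving out PBS replicate 1 gave 1 call (0.292% of all genes), leaving out spermidine replicate 1 gave 2 (1.65%) and leaving out spermidine replicate 2 gave 3 (3.84%).

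Below that threshold, the 12 heat shock genes leaned toward higher levels after spermidine. Their summed level in Aire-stage-like cells was 5529.6 and 5900.1 CPM with PBS and 6561 and 6563 CPM with spermidine, a log2 difference of 0.20 between group means. In transit-amplifying-like cells it was 9194 and 9276 CPM with PBS and 10039 and 10289.5 CPM with spermidine. In tuft-like cells it was 5196 and 5562 CPM with PBS and 5728 and 5759 CPM with spermidine. Both spermidine samples lay above both PBS samples in these 3 classes. The same order held in immature-like cells (5380.2 and 4868 CPM with PBS and 6309.8 and 6348 CPM with spermidine), in microfold-like cells (4148 and 4769 CPM with PBS and 5133 and 5324 CPM with spermidine), in muscle-like cells (7124 and 8449 CPM with PBS and 9542 and 9702 CPM with spermidine) and in cluster 16 (3750.1 and 3863 CPM with PBS and 4314 and 4041 CPM with spermidine). It did not hold in neuroendocrine-like (4942 and 5394 CPM with PBS and 5933 and 5148 CPM with spermidine) or goblet-like cells (5211 and 5634 CPM with PBS and 6444 and 5348 CPM with spermidine), so the count was 7 of 9 classes. The same 4 samples supply every class, so the classes are not independent. Aire-stage-like clusters 4 and 6 held 118, 117, 259 and 178 cells and 141, 153, 186 and 148 cells. Transit-amplifying-like clusters 5 and 15 held 55, 55, 133 and 109 cells and 25, 27, 39 and 20 cells. Cluster shares thus moved with treatment, and sums and gene levels in these classes mix them with levels inside each cluster. The part of these shares in the sums was not tested. A summed level also gives abundant genes the most weight. Hsp90ab1 alone averaged 4036 CPM in transit-amplifying-like and 4160 CPM in muscle-like cells. The order of the sums can therefore follow HSP90 transcripts more than the other heat shock genes, whose counts by gene are given below. The summed immediate early genes overlapped between groups in 9 of 9 classes. In tuft-like cells they were 4633 and 4258 CPM with PBS and 4534 and 4229 CPM with spermidine. Over all mTECs, where class shares mix with levels, the sum was 3117 and 2565 CPM with PBS and 2474 and 2450.2 CPM with spermidine, lower in both spermidine samples. Other settings also separated single classes in that direction. Microfold-like cells did so with HT6 and HT7 in the assignment (2769 and 2578 CPM with PBS, 2329 and 2548 CPM with spermidine). They also did so when the leading hashtag had to hold at least 80% of the 4 hashtags' counts (3563 and 2381 CPM with PBS, 2355 and 2371 CPM with spermidine). Muscle-like cells did so with that last rule (3495 and 2458 CPM with PBS, 2419 and 1981 CPM with spermidine). At Leiden resolution 0.5 the muscle-like sums were separate too (4884 and 5458 CPM with PBS, 4603 and 4169.6 CPM with spermidine). Transit-amplifying-like cells did so with a limit of 10% mitochondrial UMIs (1611 and 1417 CPM with PBS, 1397 and 1282 CPM with spermidine). Goblet-like cells did so with the 31 genes among the clustering genes (2976 and 2739 CPM with PBS, 2658 and 2555 CPM with spermidine). With cells limited to the shallower side of the class median of UMIs, the 7 classes became 4, and the Aire-stage-like and microfold-like sums and that of cluster 16 overlapped. When 2 further hashtags that no label names were used in demultiplexing, the count stayed at 7 of 9, but cluster 16 overlapped (log2 difference -0.043) and goblet-like cells did not.

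**Figure D3:**
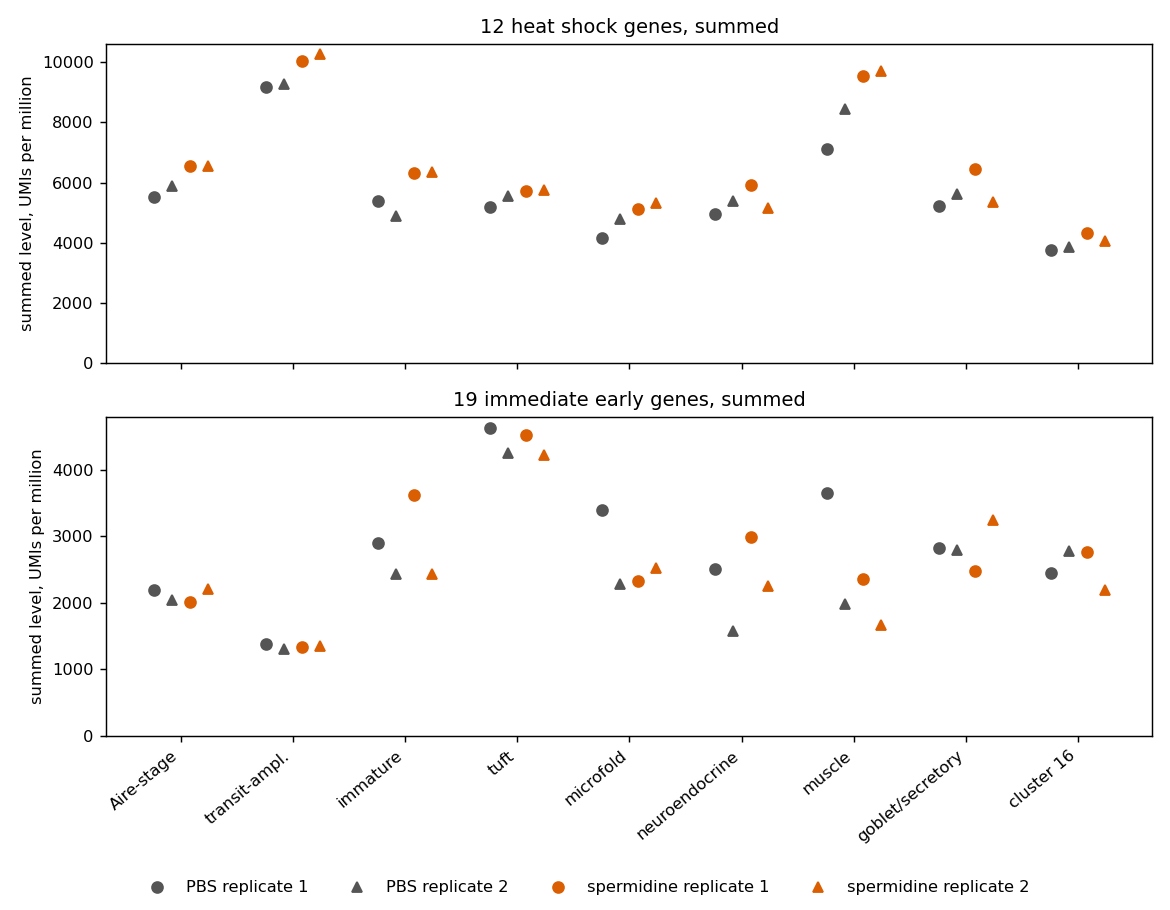
Summed level (CPM, axes from 0) of the 12 heat shock genes, top, and the 19 immediate early genes, bottom, in each of 9 classes, 1 point per hashed sample (PBS grey, spermidine orange; circles replicate 1, triangles replicate 2). Both spermidine points lie above both PBS points for heat shock genes in 7 of 9 classes, and for immediate early genes the groups overlap in all 9.

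By gene, 11 of 12 heat shock members had a log2 fold change above 0 in Aire-stage-like cells, with a median of 0.22 beside -0.0040 over all genes. In 8 of 12 both spermidine samples were above both PBS samples, an order found in 19.3% of all genes. The corresponding counts were 10 of 12 above 0 and 6 not overlapping in transit-amplifying-like cells (19.2% of all genes), 10 and 8 in immature-like cells (16.7%), and 9 and 5 in tuft-like cells (19.1%). They were 10 and 4 in microfold-like cells (16.3%), 9 and 2 in neuroendocrine-like cells (15.0%), 10 and 7 in muscle-like cells (17.6%), 8 and 1 in goblet-like cells (16.5%) and 8 and 3 in cluster 16 (20.2%). The opposite order, both spermidine samples lower, held for 3 in tuft-like (24.1% of all genes), 3 in neuroendocrine-like (17.3%) and 2 in goblet-like cells (16.2%). It held for 1 each in transit-amplifying-like (18.9%), immature-like (16.3%) and cluster 16 cells (15.0%). No heat shock member had it in Aire-stage-like (18.2%), microfold-like (15.8%) or muscle-like cells (19.7%). Neuroendocrine-like and goblet-like cells thus had more members separate downward than upward. Of the 19 immediate early genes, 10 were above 0 in Aire-stage-like cells (median 0.0030) and 10 in tuft-like cells (median 0.0070). In tuft-like cells both spermidine samples were higher for 5 of them (19.1% of all genes) and lower for 5 (24.1%). In microfold-like cells 0 of 15 tested were above 0 (median -0.22), and in 3 both spermidine samples were lower (15.8% of all genes). In muscle-like cells 4 of 17 were above 0. There both spermidine samples were lower for 2 (19.7% of all genes) and higher for 2 (17.6%). Over all mTECs 12 of 12 heat shock genes were above 0, 10 of them without overlap (22.6%), and 8 of 19 immediate early genes were lower in both spermidine samples (30.4%).

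HSP90 transcripts carried the most even pattern. Hsp90aa1 and Hsp90ab1 each had a log2 fold change above 0 in 9 of 9 classes, and in 7 of 9 classes for each gene both spermidine samples exceeded both PBS samples. Hsp90aa1 in Aire-stage-like cells stood at 422 and 439 CPM with PBS and 529 and 502 CPM with spermidine (log2 fold change 0.26 ± 0.074, adjusted p = 0.658). In transit-amplifying-like cells it stood at 934 and 1018 CPM with PBS and 1215 and 1259 CPM with spermidine (log2 fold change 0.34 ± 0.074, adjusted p = 0.356). Both groups were separate in each class, with the spermidine samples higher. In microfold-like cells the Hsp90aa1 groups overlapped, at 319 and 443 CPM with PBS and 431 and 578 CPM with spermidine (log2 fold change 0.40 ± 0.24, adjusted p = 0.999). In goblet-like cells they did not, at 338 and 472 CPM with PBS and 693 and 591 CPM with spermidine (log2 fold change 0.66 ± 0.31, adjusted p = 0.998), nor in cluster 16, at 303 and 233 CPM with PBS and 357 and 359 CPM with spermidine (log2 fold change 0.38 ± 0.22, adjusted p = 0.906). Hsp90ab1 in transit-amplifying-like cells was at 3948 and 3697 CPM with PBS and 4265 and 4233 CPM with spermidine (log2 fold change 0.15 ± 0.047, adjusted p = 0.529), and in muscle-like cells at 3475 and 3716 CPM with PBS and 4691 and 4756 CPM with spermidine (log2 fold change 0.41 ± 0.12, adjusted p = 0.671). Both spermidine samples were the higher in these classes. The same was true in microfold-like cells, at 1006 and 1319.6 CPM with PBS and 1421 and 1486 CPM with spermidine (log2 fold change 0.32 ± 0.18, adjusted p = 0.999), and in cluster 16, at 1233 and 1157 CPM with PBS and 1428 and 1570.4 CPM with spermidine (log2 fold change 0.29 ± 0.20, adjusted p = 0.918). Within transit-amplifying-like cluster 5, Hsp90ab1 was at 3848 and 3816 CPM with PBS and 4377 and 4385 CPM with spermidine. In cluster 15 its groups overlapped, at 4089 and 3561 CPM with PBS and 3950 and 3537 CPM with spermidine. Hsp90aa1 was higher in the spermidine samples of both clusters, without overlap.

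The inducible HSP70 pair was higher in the spermidine samples of tuft-like cells. Hspa1b there stood at 104 and 78.1 CPM with PBS and 130.3 and 131 CPM with spermidine (log2 fold change 0.51 ± 0.12, adjusted p = 0.168), and Hspa1a at 94.8 and 67.2 CPM with PBS and 116 and 103 CPM with spermidine (log2 fold change 0.43 ± 0.14, adjusted p = 0.298). Neither gene's groups overlapped. In Aire-stage-like cells Hspa1b was at 138 and 115 CPM with PBS and 157 and 158 CPM with spermidine (log2 fold change 0.31 ± 0.11, adjusted p = 0.685), again without overlap. Hspa1a was among the 3 higher members with the smallest p in immature-like cells, at 321 and 255 CPM with PBS and 396 and 426 CPM with spermidine (log2 fold change 0.51 ± 0.17, adjusted p = 1.0), in microfold-like cells, at 201 and 118 CPM with PBS and 237 and 260.1 CPM with spermidine (log2 fold change 0.63 ± 0.27, adjusted p = 0.999), and in cluster 16, at 91.7 and 147 CPM with PBS and 203 and 141 CPM with spermidine (log2 fold change 0.50 ± 0.31, adjusted p = 0.908). The first 2 classes were separate by group and cluster 16 overlapped. Hspa1a and Hspa1b each had a log2 fold change above 0 in 8 of 9 classes and below 0 in 1. For each gene both spermidine samples lay above both PBS samples in 4 classes and below both in 1. Over all classes past the Aire stage, Hspa1a stood at 116 and 112 CPM with PBS and 144 and 138 CPM with spermidine (log2 fold change 0.33 ± 0.065, adjusted p = 0.388) and Hspa1b at 131 and 114 CPM with PBS and 143 and 152 CPM with spermidine (log2 fold change 0.28 ± 0.085, adjusted p = 0.517). Over all mTECs Hspa1a stood at 134 and 145 CPM with PBS and 165 and 191 CPM with spermidine (log2 fold change 0.39 ± 0.10, adjusted p = 0.176). Hsph1, which reloads HSP70, was above 0 in 9 of 9 classes. It was at 46.7 and 71.7 CPM with PBS and 84.9 and 84 CPM with spermidine in transit-amplifying-like cells (log2 fold change 0.51 ± 0.19, adjusted p = 0.619), and at 37.4 and 60.5 CPM with PBS and 116 and 49.1 CPM with spermidine in goblet-like cells (log2 fold change 0.80 ± 0.45, adjusted p = 0.998), where the groups overlapped.

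Hspb1 had the largest heat shock difference by class. In immature-like cells it stood at 329 and 412 CPM with PBS and 669.9 and 707 CPM with spermidine, with the groups far apart (log2 fold change 0.90 ± 0.16, adjusted p = 0.528). In neuroendocrine-like cells it was at 214 and 163 CPM with PBS and 307 and 315 CPM with spermidine (log2 fold change 0.73 ± 0.18, adjusted p = 0.808), and in muscle-like cells at 153 and 182 CPM with PBS and 232 and 239.8 CPM with spermidine (log2 fold change 0.51 ± 0.16, adjusted p = 0.681). All 3 were separate by group. Dnaja1 was above its PBS range in immature-like cells, at 142 and 154 CPM with PBS and 190.5 and 259 CPM with spermidine (log2 fold change 0.61 ± 0.20, adjusted p = 1.0), and below it in goblet-like cells, at 229 and 202 CPM with PBS and 184 and 138 CPM with spermidine (log2 fold change -0.42 ± 0.28, adjusted p = 0.998). Of the mitochondrial pair, Hspd1 in Aire-stage-like cells stood at 139 and 155 CPM with PBS and 197 and 184 CPM with spermidine (log2 fold change 0.37 ± 0.098, adjusted p = 0.648), and over all mTECs at 157 and 195 CPM with PBS and 238 and 233 CPM with spermidine (log2 fold change 0.46 ± 0.12, adjusted p = 0.182). In Aire-stage-like cluster 4 Hspd1 was at 164 and 188 CPM with PBS and 239 and 220 CPM with spermidine. In cluster 6 its groups overlapped, at 109 and 121 CPM with PBS and 114 and 120 CPM with spermidine. Hspe1 in goblet-like cells overlapped, at 297 and 482 CPM with PBS and 319.9 and 199 CPM with spermidine (log2 fold change -0.59 ± 0.37, adjusted p = 0.998). The log2 fold change of Hspa5 was above 0 in 4 classes and below 0 in 5. In Aire-stage-like cells it was at 1037 and 1058 CPM with PBS and 1285 and 1128 CPM with spermidine (log2 fold change 0.20 ± 0.091, adjusted p = 0.747), with both spermidine samples higher. Within the Aire-stage-like clusters the Hspa5 groups overlapped. Cluster 4 held 1344 and 1444 CPM with PBS and 1624 and 1361 CPM with spermidine. Cluster 6 held 666 and 647 CPM with PBS and 606 and 716 CPM with spermidine. Hspa5 was at 914 and 981 CPM with PBS and 877 and 905 CPM with spermidine in transit-amplifying-like cells (log2 fold change -0.089 ± 0.072, adjusted p = 0.828). In immature-like cells Hspa5 stood at 309 and 307 CPM with PBS and 259 and 228 CPM with spermidine (log2 fold change -0.34 ± 0.16, adjusted p = 1.0), and in neuroendocrine-like cells at 413 and 597 CPM with PBS and 379 and 360.4 CPM with spermidine (log2 fold change -0.43 ± 0.20, adjusted p = 1.0). The spermidine samples were the lower in these last 3 classes.

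Among the AP-1 genes, Jun in tuft-like cells had the smallest adjusted p of any member and class. It stood at 365 and 336 CPM with PBS and 466 and 425 CPM with spermidine (log2 fold change 0.36 ± 0.071, adjusted p = 0.114), with both spermidine samples higher. In muscle-like cells Jun had the opposite sign, at 338 and 284 CPM with PBS and 244 and 195 CPM with spermidine (log2 fold change -0.48 ± 0.17, adjusted p = 0.721). The log2 fold change of Jund was above 0 in 4 classes and below 0 in 5. Both spermidine samples were the lower in Aire-stage-like cells, at 567 and 577 CPM with PBS and 532 and 551 CPM with spermidine (log2 fold change -0.085 ± 0.064, adjusted p = 0.848). The same held in microfold-like cells, at 815 and 741 CPM with PBS and 618 and 613 CPM with spermidine (log2 fold change -0.34 ± 0.17, adjusted p = 0.999). In muscle-like cells they were also the lower, at 648 and 565 CPM with PBS and 488 and 450.0 CPM with spermidine (log2 fold change -0.35 ± 0.14, adjusted p = 0.731). They were the higher in neuroendocrine-like cells, at 738 and 647 CPM with PBS and 846 and 762 CPM with spermidine (log2 fold change 0.23 ± 0.15, adjusted p = 1.0). In transit-amplifying-like cells they were the higher as well, at 356 and 379.7 CPM with PBS and 394 and 391 CPM with spermidine (log2 fold change 0.093 ± 0.075, adjusted p = 0.833).

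Fos was uneven between samples of 1 group. It was at 244 and 118 CPM with PBS and 293 and 334 CPM with spermidine in neuroendocrine-like cells (log2 fold change 0.79 ± 0.30, adjusted p = 1.0), at 307 and 117 CPM with PBS and 143 and 143 CPM with spermidine in microfold-like cells (log2 fold change -0.58 ± 0.40, adjusted p = 0.999) and at 879.8 and 197 CPM with PBS and 333 and 158 CPM with spermidine in muscle-like cells (log2 fold change -1.08 ± 0.59, adjusted p = 0.790). PBS replicate 1 was far above PBS replicate 2 in all 3 classes. Junb in goblet-like cells stood at 329 and 346 CPM with PBS and 350.0 and 439.7 CPM with spermidine (log2 fold change 0.22 ± 0.28, adjusted p = 0.998). Fosb in cluster 16 was at 23.4 and 26.5 CPM with PBS and 20 and 8.54 CPM with spermidine (log2 fold change -0.82 ± 0.47, adjusted p = 0.906). Atf3 was at 45.2 and 34.2 CPM with PBS and 35.6 and 33.1 CPM with spermidine in Aire-stage-like cells, with overlap (log2 fold change -0.21 ± 0.17, adjusted p = 0.858), and at 28.9 and 18.9 CPM with PBS and 16.5 and 15.5 CPM with spermidine in microfold-like cells (log2 fold change -0.59 ± 0.39, adjusted p = 0.999).

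Egr3 had a log2 fold change below 0 for spermidine in 5 of 7 classes tested. In tuft-like cells it stood at 166 and 146 CPM with PBS and 131 and 103 CPM with spermidine (log2 fold change -0.40 ± 0.11, adjusted p = 0.251), with both spermidine samples lower. Tuft-like cluster 1 had that order, at 164 and 267 CPM with PBS and 122 and 82.9 CPM with spermidine. The Egr3 groups overlapped in cluster 0, at 216 and 185 CPM with PBS and 183 and 191 CPM with spermidine. Egr3 overlapped in cluster 3 too, at 118 and 51.7 CPM with PBS and 90.2 and 35.6 CPM with spermidine. In Aire-stage-like cells it was at 15.5 and 17.4 CPM with PBS and 5.41 and 9.85 CPM with spermidine (log2 fold change -1.13 ± 0.34, adjusted p = 0.660). In cluster 16 it was at 11.7 and 22.5 CPM with PBS and 6.32 and 6.41 CPM with spermidine (log2 fold change -1.41 ± 0.55, adjusted p = 0.863), where 6 UMIs were counted in each spermidine sample. Over the classes past the Aire stage it was at 107 and 86.9 CPM with PBS and 75 and 64.7 CPM with spermidine (log2 fold change -0.46 ± 0.12, adjusted p = 0.449), and over all mTECs at 73.7 and 52 CPM with PBS and 33.8 and 31 CPM with spermidine (log2 fold change -0.91 ± 0.16, adjusted p = 0.128). The pooled value moves with class shares: tuft-like cells made up 34.4%, 27.7%, 23.3% and 21.8% of the 4 samples. Egr2 followed in tuft-like cells, at 39.2 and 36.6 CPM with PBS and 32.8 and 25 CPM with spermidine (log2 fold change -0.36 ± 0.14, adjusted p = 0.383), over the classes past the Aire stage, at 24.6 and 21 CPM with PBS and 19.3 and 14.2 CPM with spermidine (log2 fold change -0.42 ± 0.17, adjusted p = 0.604), and over all mTECs, at 17.8 and 13.1 CPM with PBS and 10.1 and 7.43 CPM with spermidine (log2 fold change -0.77 ± 0.21, adjusted p = 0.186). Egr1 in neuroendocrine-like cells was separate by a narrow margin, at 166 and 62.2 CPM with PBS and 314 and 168 CPM with spermidine (log2 fold change 1.06 ± 0.42, adjusted p = 1.0).

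The Krüppel-like factors and the feedback regulators gave the remaining leading members. Klf4 was at 143 and 184 CPM with PBS and 97 and 52.3 CPM with spermidine in cluster 16 (log2 fold change -1.16 ± 0.32, adjusted p = 0.669), with both spermidine samples lower. It was at 25.8 and 23.9 CPM with PBS and 17.3 and 21.3 CPM with spermidine in transit-amplifying-like cells (log2 fold change -0.37 ± 0.20, adjusted p = 0.709), at 152 and 102 CPM with PBS and 116 and 104 CPM with spermidine in neuroendocrine-like cells (log2 fold change -0.20 ± 0.21, adjusted p = 1.0) and at 152 and 116 CPM with PBS and 93 and 99.3 CPM with spermidine over all mTECs (log2 fold change -0.44 ± 0.13, adjusted p = 0.195). Its log2 fold change was below 0 in 8 of 9 classes. Klf2 in transit-amplifying-like cells was at 8.27 and 41.6 CPM with PBS and 8.16 and 6.90 CPM with spermidine (log2 fold change -1.72 ± 0.66, adjusted p = 0.619), a difference that rests on PBS replicate 2. In neuroendocrine-like cells it was at 22.9 and 17.2 CPM with PBS and 10.6 and 15.5 CPM with spermidine (log2 fold change -0.68 ± 0.39, adjusted p = 1.0), and Klf6 in immature-like cells at 153 and 181 CPM with PBS and 139 and 141 CPM with spermidine (log2 fold change -0.25 ± 0.19, adjusted p = 1.0). Dusp1 differed in sign between classes: it was at 60.9 and 86.2 CPM with PBS and 47.1 and 40.7 CPM with spermidine in immature-like cells (log2 fold change -0.74 ± 0.28, adjusted p = 1.0), at 72.5 and 48.4 CPM with PBS and 41.9 and 31.2 CPM with spermidine in goblet-like cells (log2 fold change -0.73 ± 0.35, adjusted p = 0.998) and at 21.7 and 13 CPM with PBS and 40 and 39.1 CPM with spermidine in muscle-like cells (log2 fold change 1.2 ± 0.32, adjusted p = 0.621). Over the classes past the Aire stage it was at 55.4 and 52.1 CPM with PBS and 61.1 and 67.2 CPM with spermidine (log2 fold change 0.27 ± 0.083, adjusted p = 0.517). Groups were separate in all 4 comparisons. Ier3 in tuft-like cells was at 18.4 and 24.1 CPM with PBS and 14.2 and 15.5 CPM with spermidine (log2 fold change -0.48 ± 0.20, adjusted p = 0.395). Ier2 over the classes past the Aire stage was at 238 and 226 CPM with PBS and 223 and 194 CPM with spermidine (log2 fold change -0.14 ± 0.081, adjusted p = 0.725), and Ier5 over all mTECs at 95.5 and 96.1 CPM with PBS and 112 and 109.9 CPM with spermidine (log2 fold change 0.25 ± 0.063, adjusted p = 0.162). Of the members not named so far for spermidine, Nr4a1 in muscle-like cells was at 6.20 and 5.0 CPM with PBS and 14.6 and 10.8 CPM with spermidine (log2 fold change 1.2 ± 0.52, adjusted p = 0.753). Nr4a2, Zfp36, Dnajb1 and Hspa8 had an unadjusted p under 0.05 in 0 of the classes in which they were tested.

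**Figure D4:**
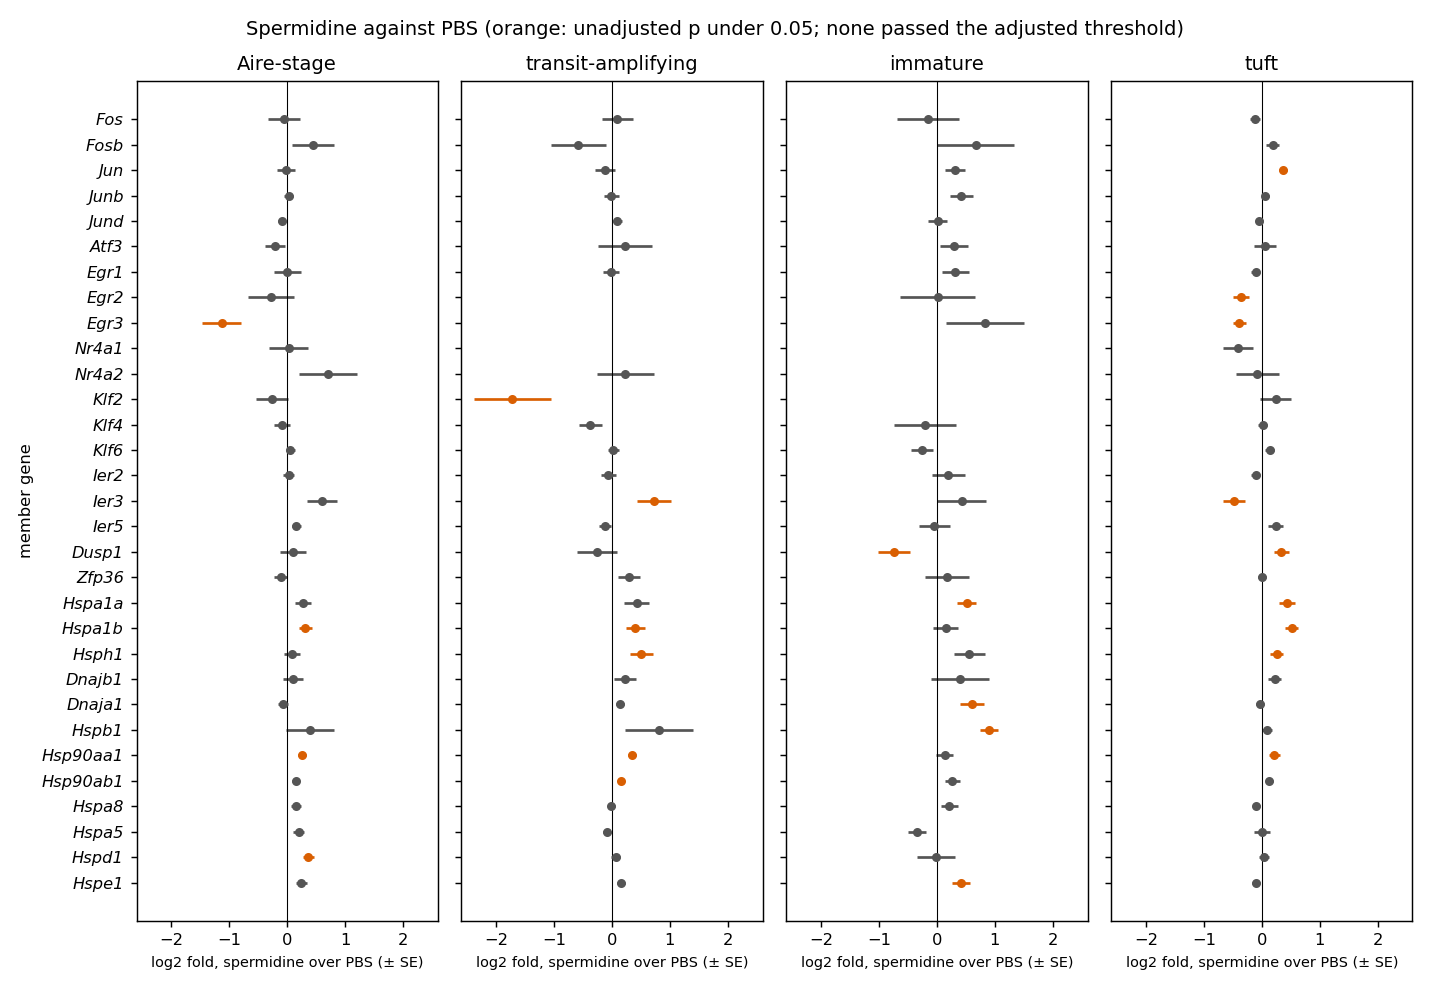
Log2 fold change of spermidine against PBS (horizontal axis) for those of the 31 genes that were tested (vertical axis) in Aire-stage-like, transit-amplifying-like, immature-like and tuft-like cells, with bars of 1 SE from edgeR and orange points at an unadjusted p under 0.05. No point passes an adjusted p of 0.05, heat shock genes lie mostly right of 0 in Aire-stage-like cells, and Egr3 lies left of 0 in Aire-stage-like and tuft-like cells.

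Whether the treatment difference itself varied between classes was tested as an interaction of class and treatment, each class against the Aire-stage-like class. No member passed in any of 8 fits in edgeR (over all genes 0.108% passed in the microfold-like fit, the highest share of the 8). At an unadjusted p under 0.05 the members counted 3 in the transit-amplifying-like fit (5.89% of all genes), 3 in the immature-like fit (3.98%), 3 in the tuft-like fit (6.81%) and 0 in the microfold-like fit (4.64%). They counted 4 in the neuroendocrine-like fit (4.37%), 1 in the muscle-like fit (4.90%), 1 in the goblet-like fit (4.22%) and 1 in that of cluster 16 (4.43%). Because each fit held only the Aire-stage-like class and 1 other, it could not compare 2 other classes with each other. Opposite signs such as those of Jun in tuft-like and muscle-like cells, or of Dusp1 in immature-like and muscle-like cells, were not tested. The 4 lists of related genes also had no calls in the 11 spermidine fits of edgeR. In Aire-stage-like cells, the smallest p among other ER chaperone genes belonged to Hsp90b1 0.31 ± 0.080 (adjusted p = 0.648), Pdia6 0.26 ± 0.076 (adjusted p = 0.660) and Pdia4 0.32 ± 0.094 (adjusted p = 0.660), which, like Hspa5 (0.20), had values above 0. Among other cytosolic chaperones it belonged to Tcp1 0.35 ± 0.098 (adjusted p = 0.658), Bag1 -0.21 ± 0.075 (adjusted p = 0.685) and Cct4 0.20 ± 0.077 (adjusted p = 0.704), among other mitochondrial chaperones to Clpx 0.14 ± 0.14 (adjusted p = 0.889), Dnaja3 0.14 ± 0.14 (adjusted p = 0.897) and Grpel2 0.098 ± 0.13 (adjusted p = 0.927), and among other immediate early genes to Gadd45b 0.28 ± 0.074 (adjusted p = 0.648), Btg2 -0.47 ± 0.18 (adjusted p = 0.704) and Trib1 0.35 ± 0.18 (adjusted p = 0.779). Unadjusted p values under 0.05 numbered 5 of 25, 2 of 33, 0 of 9 and 2 of 36 genes tested in these lists.

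Several measures moved with treatment beside the heat shock sum. Aire-stage-like cells made up 19.4%, 27.2%, 32.4% and 32.4% of the 4 samples and transit-amplifying-like cells 5.99%, 8.26%, 12.5% and 12.8%, so values pooled over all mTECs mix class shares with levels. In transit-amplifying-like cells median UMIs per cell were 25535 and 26137 with PBS and 29383 and 26693 with spermidine, and in Aire-stage-like cells 20084 and 19562 with PBS and 20996 and 20199 with spermidine. The median mitochondrial share in tuft-like cells, in percent, was 5.29 and 5.39 with PBS and 5.89 and 5.43 with spermidine. Among markers of other cells in Aire-stage-like cells, the summed 6 erythroid genes were at 165 and 147 CPM with PBS and 348 and 848 CPM with spermidine, with 6 of 6 higher by mean after spermidine. The 13 thymocyte genes were at 66.8 and 64.1 CPM with PBS and 98 and 70.1 CPM with spermidine (10 of 13 higher), and 5 general leukocyte genes at 3053 and 3064 CPM with PBS and 2263 and 2264 CPM with spermidine. The 13 myeloid genes overlapped, at 2057 and 1900.0 CPM with PBS and 2306 and 1763 CPM with spermidine. No gene of these 4 lists was at 0 in all samples of Aire-stage-like cells. In transit-amplifying-like cells the 8 B cell genes were at 86.6 and 95.7 CPM with PBS and 161 and 219 CPM with spermidine (6 of 8 higher). The erythroid genes there were at 14.1 and 17.2 CPM with PBS and 24.5 and 238 CPM with spermidine (4 of 6 higher). In tuft-like cells the general leukocyte genes were at 474 and 431 CPM with PBS and 505 and 525 CPM with spermidine (5 of 5 higher). The part of these measures in the heat shock sum was not tested. In cells on the low side of the class median mitochondrial share, the heat shock sum was higher in both spermidine samples in 5 of 9 classes, and on the high side in 6. Counting can also merge gene copies. Within the last 500 bases of their transcripts, Hspa1a and Hspa1b shared no 50-base word with each other or another gene. Hspa8 shared 60.6% of such words with other genes, Hsp90aa1 40.9%, Hspb1 39.2%, Hspd1 29.8%, Hspe1 26.6%, Dnaja1 22.1% and Hsp90ab1 4.11%. Their counts are uncertain for this reason, but the part of each count affected was not tested.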

How the data were processed

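The deposited matrix, per the file headers made with Cell Ranger 7.1.0, holds whole-number UMI counts of 55487 genes in 12139 barcodes, beside a table of hashtag read counts. Genome build mm10 and the tools Cell Ranger, bcl2fastq and Seurat are named in the submitters' processing notes. All counts were used as deposited by the authors, and 0 columns of other samples were used. Cells needed at least 1000 UMIs and 500 genes and under 15% mitochondrial UMIs, which left 8534. Seurat 5.3.0 (HTODemux, quantile 0.99) on the 4 labelled hashtags assigned 4709 cells to 1 sample and removed 1027 doublets and 2798 negatives; no further doublet caller was run. Scanpy 1.11.5 clustered cells on 2000 variable genes, 30 principal components and Leiden resolution 1, with the 31 genes and 4 related lists left out, so that the members did not draw the clusters.

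Counts were summed per class and hashed sample for classes with at least 20 cells in every sample and tested with edgeR 4.0.16 (quasi-likelihood, TMM, filterByExpr, Benjamini-Hochberg adjustment over all genes tested, threshold 0.05), with the hashed sample as a block in class contrasts. DESeq2 1.42.0 was an alternative. The test was checked on simulated counts. Named members are those past the threshold or, where fewer than 6 are, the 3 higher and 3 lower with the smallest p in each spermidine fit; in class contrasts, the 3 highest and 3 lowest called. Of the related lists, the 3 genes with the smallest p are printed for the tuft-like and transit-amplifying-like contrasts and the Aire-stage-like spermidine fit. The members and lists were chosen with earlier results of these data known. The crossed pairing, the splits of cells by depth or mitochondrial share and the alternatives for the heat shock sum were chosen after seeing the data, as were the members described in classes without a test. Gene positions are those of GENCODE on GRCm38, the build of mm10. The alternatives were other hashtag assignments, mitochondrial limits, clusterings, filters and left-out samples. Same-numbered samples were not paired by the labels, and their deviations over all genes correlated between -0.14 and 0.042 by fit; over the members alone the range was -0.59 in goblet-like to 0.80 in muscle-like cells, from 2 pairs. The assigned cells of each hashed sample held 17668782 to 25673749 UMIs in total, and shares and levels carry counting error beside the spread between samples.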

Additional observations from a re-analysis of the deposited data

Results flagged for a closer look

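Hashtags HT6 and HT7, which no sample label names, carried far more counts than the other unlabelled hashtags. HT6 had 5275279 counts over all barcodes and HT7 had 2057190, where the 4 labelled hashtags had between 2824009 and 5528169 and each of the other 9 unlabelled hashtags at most 13890. When HT6 and HT7 were added to the assignment, 897 of 4709 assigned cells (19%) became doublets. What these cells are was not tested.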

How the results depend on the processing

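No member was called for spermidine in the 11 edgeR fits of all 4 samples with the filter on low counts and no block. Without that filter there were 6 calls in transit-amplifying-like (all genes 1.85%), 1 in immature-like (0.562%), 5 in tuft-like (2.02%) and 4 in neuroendocrine-like cells (1.14%), 2 over the classes past the Aire stage (2.37%) and 11 over all mTECs (7.73%), and for the interaction with class 1 in tuft-like (0.919%) and 3 in neuroendocrine-like cells (0.684%). DESeq2 gave 1 in transit-amplifying-like cells (0.165%), 1 in tuft-like cells (0.153%) and 5 over all mTECs (2.07%). Leaving out 1 hashed sample gave 0 to 2 calls in immature-like, 0 to 3 in tuft-like, 0 to 2 in neuroendocrine-like and 0 to 6 in muscle-like cells and 0 to 6 over all mTECs; the 2 calls in immature-like cells came without spermidine replicate 1 (0.499%), those in neuroendocrine-like cells without spermidine replicate 2 (0.845%) and the 6 in muscle-like cells (0.593%) and over all mTECs (2.67%) without PBS replicate 2. The lone sample of an arm is then assumed to vary like the others. With the replicate number as a block, 1 member (Fos) was called in muscle-like cells (0.827%) and 0 in the other 10 fits. With the pairing crossed, in immature-like and goblet-like cells, where same-numbered samples correlated under -0.1, there were 0 calls. The 15 members called in cluster 16 against Aire-stage-like cells (40.1%) ranged from 9 to 13 without 1 sample, with 9 without spermidine replicate 1 (31.7%). Hspd1 in muscle-like cells (1.07) changed sign with a mitochondrial limit of 10% (-0.21), with the members among the clustering genes (-0.30) and at Leiden resolution 0.5 (-0.75); the cause was not tested. The heat shock sum was higher in both spermidine samples in 7 of 9 classes and, in cells below the class median UMI count, in 4. Of 602 alternative values of named members in class contrasts, 566 kept direction and call, 33 lost the call and 3 changed sign. For spermidine, 1058 kept direction and call, 15 changed sign and 47 gained a call. Depth limits the scarce members, such as Nr4a2, Klf2 and Egr2, which were not tested in every class.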

Other observations

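Cells outside the tested classes also expressed the module. In the keratinocyte-like class Klf4 stood at 416, 401, 510.3 and 578 CPM, Ier5 at 292, 288, 342 and 335 CPM and Ier2 at 232, 201, 168 and 257 CPM. Egr2 there was at 64.4, 48.4, 58.6 and 28.6 CPM. In the ciliated-like class Hsph1 stood at 329, 349, 323 and 445 CPM and Hspa8 at 1495, 1348, 1605 and 1729 CPM, from 23, 10, 15 and 7 cells. Myeloid-like cells had Zfp36 at 529.5, 193, 310.3 and 919 CPM and Atf3 at 299, 147, 138 and 430.3 CPM. Thymocyte-like cells had Nr4a1, a gene induced by T cell receptor signals, at 54.2, 98.9, 137 and 160.5 CPM and Klf2, a gene of mature T cells, at 166, 67.5, 108 and 134 CPM. These classes had under 20 cells in at least 1 sample or are not mTECs, and no test was made.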
